A study of Mus musculus with 4 samples.

Results

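The cytosolic ribosomal protein genes were followed across macrophages in 4 states, with 1 Affymetrix array for each state. Members were taken by symbol: every gene with a probe of a single annotated symbol that begins with Rpl, Rps or Rplp and a number, leaving out pseudogene symbols and the kinases named Rps6k. The rule gave 60 genes of the 19938 that had a probe of a single symbol, and each gene was read through the probe whose mean signal was highest. All cells were bone-marrow-derived macrophages of female BalbC mice, differentiated for 7 days with 30% L929-conditioned medium, which supplies M-CSF. For the 48 hours before treatment this medium was at 10%, in all 4 states. The control group received no inducer, the LPS group received lipopolysaccharide (10 ng/ml, a ligand of TLR4), the LPS/zVAD group received LPS with the caspase inhibitor zVAD (50 µM), and the LPS/zVAD/Nec-1 group received both of these with Nec-1 (30 µM), an inhibitor of the kinase RIPK1. No array of zVAD alone, of Nec-1 alone or of LPS with Nec-1 was analysed here, and the sources used here give no treatment times. With 1 array per state no p-value or spread between replicates exists for any value below.

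Ribosomal proteins form the protein part of the small and the large ribosomal subunit, together with ribosomal RNA. Their mRNAs are among the most abundant in a cell and usually carry a pyrimidine tract at the 5′ end (a terminal oligopyrimidine or TOP motif), through which mTOR and LARP1 set how much of each is translated. Production of new ribosomes needs a further set of nucleolar factors, which are known targets of MYC.

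RefSeq lists 83 protein-coding mouse genes whose symbol fits the rule, and 59 of them were members. A further 17 had only probes annotated to several symbols and 7 had no named probe, so neither set was analysed here as genes. The remaining member, Rps4l, is listed by RefSeq as a transcribed pseudogene. By role, 20 members belonged to the small subunit, 30 to the large subunit and 3 to the stalk of the large subunit (Rplp0, Rplp1 and Rplp2). The other 7 were relatives of core genes: Rpl3l, Rpl7l1, Rpl10l, Rpl32l, Rpl39l, Rps4l and Rps27l. The highest signal of 57 members reached log2 6.47, the median of all values in the table, which served as the filter level. Rpl3l, Rpl10l and Rpl39l, whose partners are the core genes Rpl3, Rpl10 and Rpl39, did not reach it on any array.

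Array medians over all 35556 probes lay between log2 6.41 and 6.52, and the highest signals between 14.5 and 14.6. The labelled cell type was checked through 11 measured macrophage markers, whose median log2 signal was 12.4 to 12.7 on the 4 arrays, with Cd163 as the one marker under the filter level. Median signals were 8.53 to 9.06 for 10 neutrophil markers, 6.91 to 7.33 for 6 stromal markers, 6.10 to 6.24 for 5 B cell markers, 5.85 to 5.96 for 3 erythroid markers and 4.96 to 5.03 for 7 T and NK cell markers. Gene by gene, the 10 neutrophil markers had median log2 ratios of 0.46 for LPS against control (8 above 0), -0.26 for LPS/zVAD against LPS (8 below 0), 0.00 with Nec-1 added (5 above and 5 below 0) and -0.29 for LPS/zVAD/Nec-1 against LPS (8 below 0). The 11 macrophage markers had 0.25 (7 above 0), -0.20 (9 below 0), 0.02 (6 above and 5 below 0) and -0.08 (9 below 0) in the same order. Over all genes that reached the filter level the medians were -0.12, -0.05, 0.07 and -0.02. The part of either marker set in the results was not tested. In bulk RNA, fewer cells of a type and less RNA per cell cannot be told apart.

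Signals of the ribosomal protein genes lay high on the array scale and differed little between arrays. The median log2 signal of the 60 members was 12.53 in control, 12.42 under LPS, 12.46 under LPS/zVAD and 12.32 under LPS/zVAD/Nec-1, and 38 members had a mean of 12 or more. Ratios can be compressed near the top of an array's scale, which was not tested. Genes with a mean log2 signal of 12 or more (592 genes, 38 of them members) are therefore given beside all 12203 genes that passed the filter. The distance between a gene's highest and lowest array had a median of 0.25 (log2) over the members, 0.62 over all filtered genes and 0.48 over the genes of high signal. A distance of 1.5-fold or more was seen in 4 members (6.67%), in 52.7% of all filtered genes and in 38.9% of the genes of high signal.

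The steadiest member was Rpl10, a large subunit protein, with log2 signals of 13.87 in control, 13.82 under LPS, 13.88 under LPS/zVAD and 13.84 under LPS/zVAD/Nec-1. Next came Rpl27, also of the large subunit, at 12.14, 12.18, 12.16 and 12.10 in the same order. Rps6, the small subunit protein that is phosphorylated downstream of mTOR, stood at 13.79, 13.80, 13.84 and 13.73. With the chosen probes of Rpl10, Rpl27 and Rps6 the highest and lowest arrays were 0.06, 0.08 and 0.10 (log2) apart. The 3 other probes of Rpl27 with a single symbol were less steady. Between LPS/zVAD/Nec-1 and LPS/zVAD they gave log2 ratios of -0.36 to -0.21, where the chosen probe gave -0.06. At the other end were Rpl12, Rpl10l, Rps27l and Rpl22, with distances of 2.04, 1.06, 0.66 and 0.65 between their highest and lowest arrays.

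**Figure D1:**
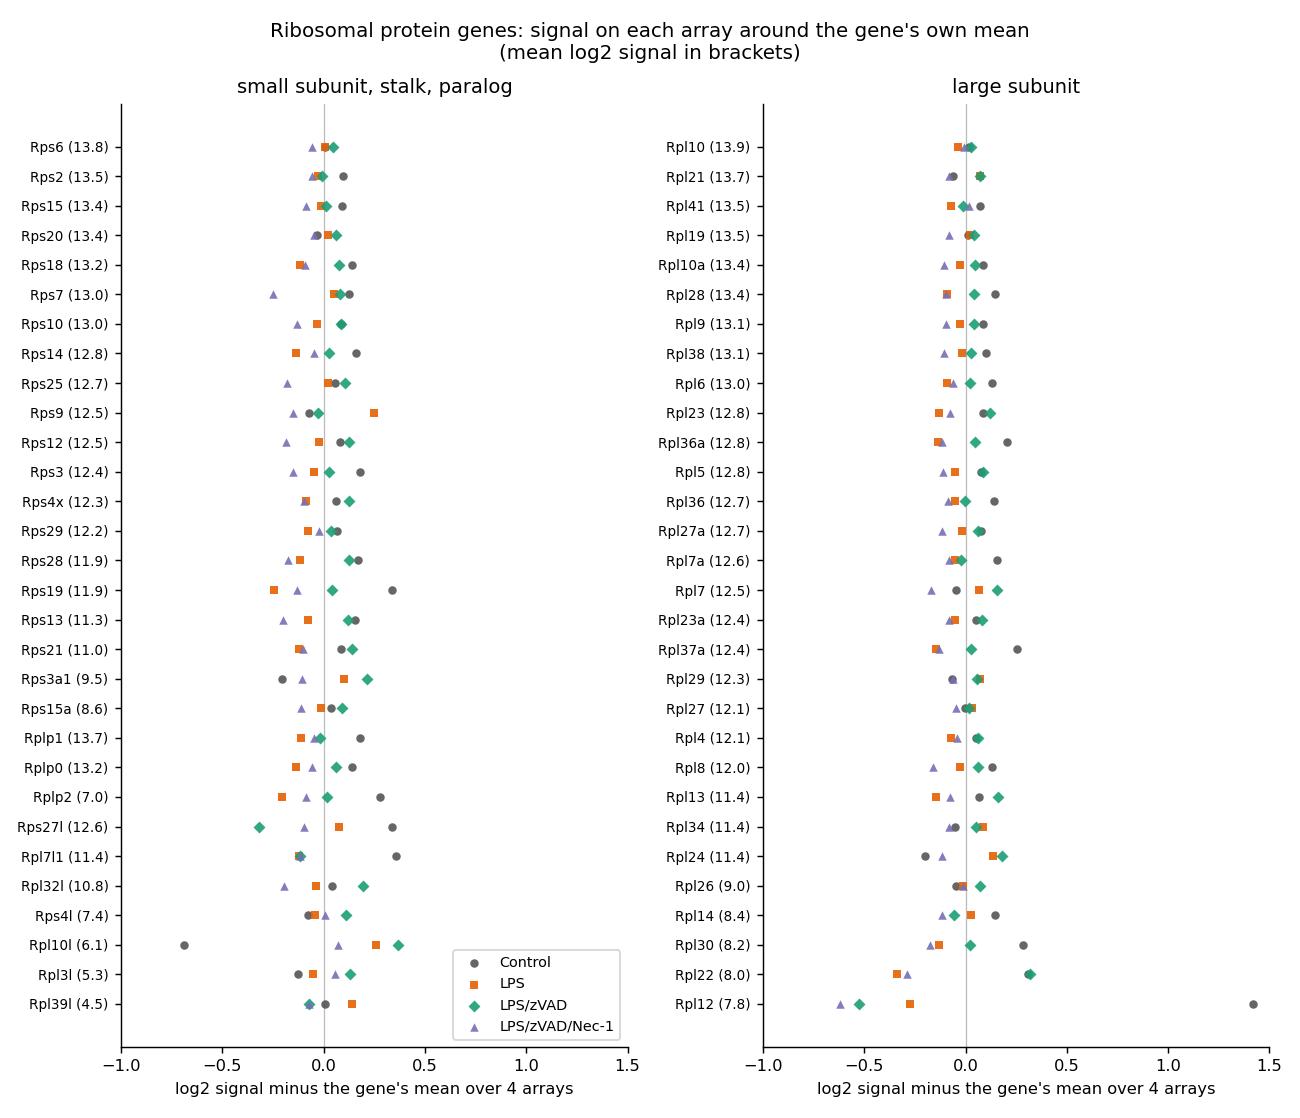
Each row is a ribosomal protein gene and each point the log2 signal on 1 array (coloured by treatment) minus that gene's own mean, with that mean in brackets. Most points lie close to 0, the LPS/zVAD/Nec-1 point is the lowest of the 4 in 33 of 60 genes, and Rpl12, Rpl10l, Rpl22 and Rps27l spread most.

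Promoter sequence was found for 48 of the 60 members in a RefSeq table of GRCm38.p6, which gives 250 bases before and 50 from the start of each annotated transcript. The stretches below run from 60 bases before the annotated start through the first 25 transcribed bases. They are shown for Rpl12, Rpl22, Rps27l and Rps9, whose profiles are described below, and, for comparison, for the steady Rps6 and the stalk gene Rplp2. Capitals mark a pyrimidine tract, defined as a C followed only by C or T for a run of at least 6 bases that begins within 5 bases of the start. No capitals means only that no such run begins in that window.
Rps6 (chr4:86857343-86857427, minus strand): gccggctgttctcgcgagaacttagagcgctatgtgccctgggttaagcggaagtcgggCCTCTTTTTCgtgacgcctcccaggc
Rps9 (chr7:3703981-3704065, plus strand): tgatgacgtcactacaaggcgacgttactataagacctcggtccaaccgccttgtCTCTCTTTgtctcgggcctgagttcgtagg
Rplp2 (chr7:141447591-141447675, plus strand): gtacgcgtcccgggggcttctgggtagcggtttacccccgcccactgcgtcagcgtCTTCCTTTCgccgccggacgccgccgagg
Rpl12 (chr2:32961652-32961736, plus strand): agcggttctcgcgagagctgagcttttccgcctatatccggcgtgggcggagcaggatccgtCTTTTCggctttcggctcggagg
Rpl22 (chr4:152325666-152325750, plus strand): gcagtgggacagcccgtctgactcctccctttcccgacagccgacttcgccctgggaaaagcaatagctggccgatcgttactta
Rps27l (chr9:66946026-66946110, plus strand): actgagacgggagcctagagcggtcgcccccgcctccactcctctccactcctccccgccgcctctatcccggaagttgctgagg

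Rpl22 and Rps27l each have a further annotated start that is not shown. Over the 57 promoters of the 48 members, 17 (29.8%) had such a tract, against 10.2% of all 32851 promoters in the table. By gene, 16 of the 48 members had it. The letters CCGGAAG, the core that ETS family factors such as GABP are known to bind, were searched on both strands of the whole stretch and occurred in 19 of the 57 member promoters (33.3%) and in 8.86% of all promoters. TATAAA, searched in the same way, occurred in 6 (10.5%) and in 13.6%. The tract rests on annotated starts, which can lie some bases away from the start used in macrophages.

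The LPS array was set against the control array to see how ribosomal protein RNA stood after LPS. A gene counted as called at a difference of 2-fold or more. By that rule 1 member was lower (Rpl12) and 0 were higher, where 7.2% of all filtered genes were lower and 8.24% higher (1.01% and 14.5% of those of high signal). At 1.5-fold, 2 members were lower (Rpl12 and Rpl22) and 1 was higher (Rpl10l), against 17.3% and 14.4% of all filtered genes and 4.22% and 23.0% of those of high signal. At 1.2-fold 12 were lower and 4 higher, against 36.4% and 24.5% of all filtered genes and 15% and 37.3% of those of high signal. The median log2 ratio of the 60 members was -0.12, the same as that of all filtered genes to 2 decimals, while genes of high signal had a median of 0.07. Ratios were below 0 in 44 members (73.3%), in 60.1% of all filtered genes and in 42.7% of those of high signal. They were above 0 in 16 (26.7%), 39.9% and 57.3%. With arrays centred on their medians, the median here went from -0.12 to -0.01 over all filtered genes and to -0.02 over the members, and 37 members were then below 0. The medians stood apart under the other scalings, at -0.12 for the members and -0.01 for all filtered genes with cyclic loess and at -0.20 and -0.08 with quantile normalization.

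In the small subunit 16 of 20 members had ratios below 0, with a median of -0.12. Rps19, the gene most often mutated in Diamond-Blackfan anaemia, had the lowest ratio of these, with log2 signals of 12.25 in control, 11.67 under LPS, 11.95 under LPS/zVAD and 11.78 under LPS/zVAD/Nec-1. The control array was the highest and the LPS array the lowest, with a log2 ratio of -0.58 that is just short of 1.5-fold. The 3 probes annotated to Rps19 with a further symbol had LPS ratios of 0.04, -0.01 and -0.01, so the Rps19 difference was seen with its own probe alone. Rps9 and Rps3a1 stood the other way, with log2 ratios of 0.32 and 0.31. The 2 probes that carry Rps3a1 with a further symbol, of higher signal, had a median LPS ratio of 0.08. Rps9 read 12.45 in control, 12.77 under LPS, 12.49 under LPS/zVAD and 12.37 under LPS/zVAD/Nec-1, so that its LPS array was the high one with this probe. Its other probe of a single symbol read 11.27, 11.53, 11.52 and 11.31, high with LPS and equally so with LPS/zVAD. Rps3, which besides its place in the ribosome is known to bind the NF-kB subunit p65, stood at 12.58, 12.35, 12.42 and 12.25.

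In the large subunit 22 of 30 members had ratios below 0, also with a median of -0.12. Rpl5, which with Rpl11 is known to bind MDM2 when ribosome assembly is disturbed, stood at 12.86 in control and 12.74 with LPS. Its 4 other probes of a single symbol had a median LPS ratio of -0.02, with 2 above and 2 below 0. After Rpl12 and Rpl22, the lowest ratios were those of Rpl30 (-0.42) and Rpl37a (-0.40). The Rpl30 probe had a mean signal of 8.19, and the 10 probes that carry Rpl30 with further symbols, at means of 13.0 to 13.4, had LPS ratios of -0.15 to -0.09 (median -0.12). The 3 probes that carry Rpl37a with a further symbol had a median LPS ratio of -0.39, close to its own probe. Rpl24 had the highest ratio, 0.34, and its signals were 11.16 in control, 11.49 under LPS, 11.54 under LPS/zVAD and 11.24 under LPS/zVAD/Nec-1. Its other probes of a single symbol gave LPS ratios of 0.44 and 0.32. Rpl29 and Rpl34 followed, both at 0.14, while the probes that carry them with further symbols had medians of -0.02 (35 probes) and 0.06 (4 probes).

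The stalk genes, whose products recruit translation factors to the ribosome, all lay lower on the LPS array. Rplp0 was at 13.34 in control, 13.07 under LPS, 13.27 under LPS/zVAD and 13.15 under LPS/zVAD/Nec-1. Rplp1 read 13.83, 13.54, 13.64 and 13.60 in that order, and Rplp2 7.26, 6.77, 7.00 and 6.89. Each of the 3 had its highest signal in control and its lowest with LPS, with LPS ratios of -0.27, -0.29 and -0.48.

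Among the relatives of core genes, Rpl7l1, a relative of Rpl7, read 11.72 in control and 11.24, 11.25 and 11.25 on the 3 arrays with LPS. Rpl7 itself read 12.49 in control, 12.61 under LPS, 12.70 under LPS/zVAD and 12.37 under LPS/zVAD/Nec-1. Rpl10l, a gene known from testis, had the highest LPS ratio of all members (0.95), but its signals of 5.36 and 6.31 both lay under the filter level, so no fold is given. Rps4l stood at 7.32 in control and 7.36 with LPS, and Rps4x, its partner, at 12.34 and 12.19. Of the 7 relatives, 4 had ratios above 0 with LPS, 5 with zVAD added, 1 with Nec-1 added and 3 between LPS/zVAD/Nec-1 and LPS, with medians of 0.04, 0.11, -0.07 and -0.16. Of a list of 10 known relatives 6 were measured, and their medians were 0.06, 0.06, -0.04 and -0.08.

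Rpl12, a large subunit protein near the stalk base, had the only 2-fold difference among the members in the 4 comparisons. Its probe read log2 9.25 in control, 7.56 under LPS, 7.31 under LPS/zVAD and 7.22 under LPS/zVAD/Nec-1, a ratio of -1.69 with LPS (3.23-fold lower). All 3 arrays with LPS lay far under the control array. The other 8 probes annotated to Rpl12 carry further symbols. Of these, 7 had mean signals of 13.4 to 13.8 and LPS ratios from -0.15 to -0.01. The eighth, whose further symbol is that of a small nucleolar RNA, read 8.86 in control, 7.82 under LPS, 7.85 under LPS/zVAD and 7.74 under LPS/zVAD/Nec-1 (LPS ratio -1.04). The median LPS ratio over the 8 probes was -0.12. The difference was thus seen with the probes of low signal and not with those of high signal, and which of them read the mature mRNA was not tested.

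**Figure D2:**
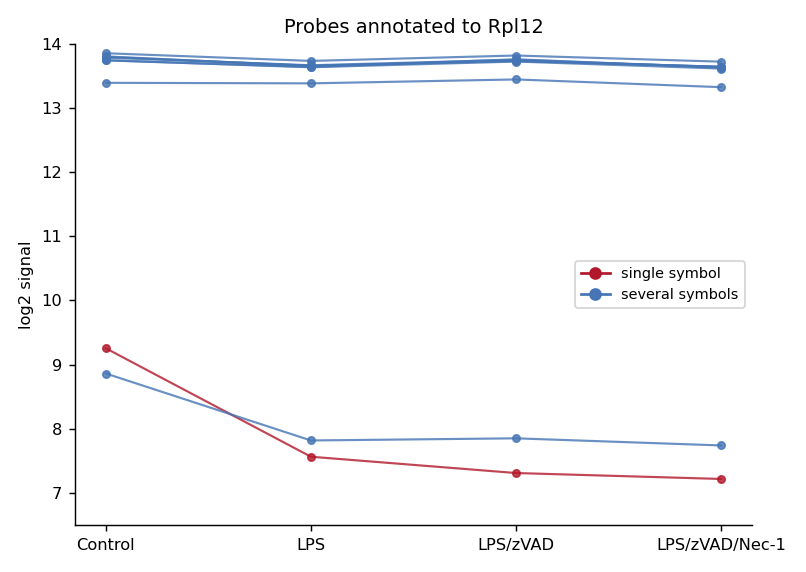
Log2 signal on each of the 4 arrays (x axis) for the 9 probes annotated to Rpl12, the probe of a single symbol in red and the 8 with several symbols in blue. The red probe and 1 blue probe lie between 7 and 10 and are lower on the arrays with LPS, while the other 7 lie above 13 and stay level within 0.15 between control and LPS.

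Adding the caspase inhibitor to LPS was the next comparison (LPS/zVAD against LPS). No member was 2-fold higher or lower (0 and 0 of 60), where 3.25% of all filtered genes were higher and 3.59% lower (1.01% and 1.18% of those of high signal). At 1.5-fold, 1 member was higher (Rpl22) and 0 were lower, against 7.96% and 13.2% of all filtered genes and 4.9% and 5.74% of those of high signal. At 1.2-fold 4 were higher and 2 lower, against 20.7% and 32.1% of all filtered genes and 12.7% and 27.9% of those of high signal. Most of their small ratios were above 0: 51 of 60 (85.0%), against 44.8% of all filtered genes and 36.8% of those of high signal. Below 0 were 8 members (13.3%), 55.1% and 63.0%. Their median log2 ratio was 0.09, with -0.05 over all filtered genes and -0.09 over the genes of high signal. The members' median kept its sign under the 3 other scalings (0.05 to 0.16), and 41 to 56 members were then above 0. All members are read on the same arrays, so their signs are not independent of one another.

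In the small subunit 19 of 20 members lay above 0 (median 0.11), with Rps9 as the exception at -0.28, where its other probe gave -0.01. Rps19, Rps21 and Rps28 had the highest ratios there (0.29, 0.26 and 0.24). In the large subunit 24 of 30 lay above 0 (median 0.08), and Rpl13 followed Rpl22 with signals of 11.26 on the LPS array and 11.56 on the LPS/zVAD array (0.31). The 9 probes of Rpl13 with a single symbol gave ratios of 0.25 to 0.33. Rpl23 was next at 0.25, Rpl21 stood at 0.00, and the lowest of the large subunit were Rpl12 (-0.25), Rpl14 (-0.09) and Rpl34 (-0.03). These 3 held with the chosen probes as deposited. The 8 probes that carry Rpl12 with further symbols all lay above 0 (median 0.08). The Rpl14 ratio turned to 0.01 after quantile normalization and after cyclic loess. The 4 probes that carry Rpl34 with further symbols had a median of 0.003. All 3 stalk genes lay above 0, at 0.20 (Rplp0), 0.10 (Rplp1) and 0.22 (Rplp2).

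Rps27l had the lowest ratio of the 60 members. It encodes a relative of Rps27 and is a known p53 target. Its signals were 12.97 in control, 12.71 under LPS, 12.31 under LPS/zVAD and 12.53 under LPS/zVAD/Nec-1, so the LPS/zVAD array was the lowest (log2 ratio -0.40 against LPS, 1.32-fold lower). With Nec-1 added its ratio was 0.22, the highest of the 60. Rps27l was read through 1 probe, and no second one could be set against it.

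**Figure D3:**
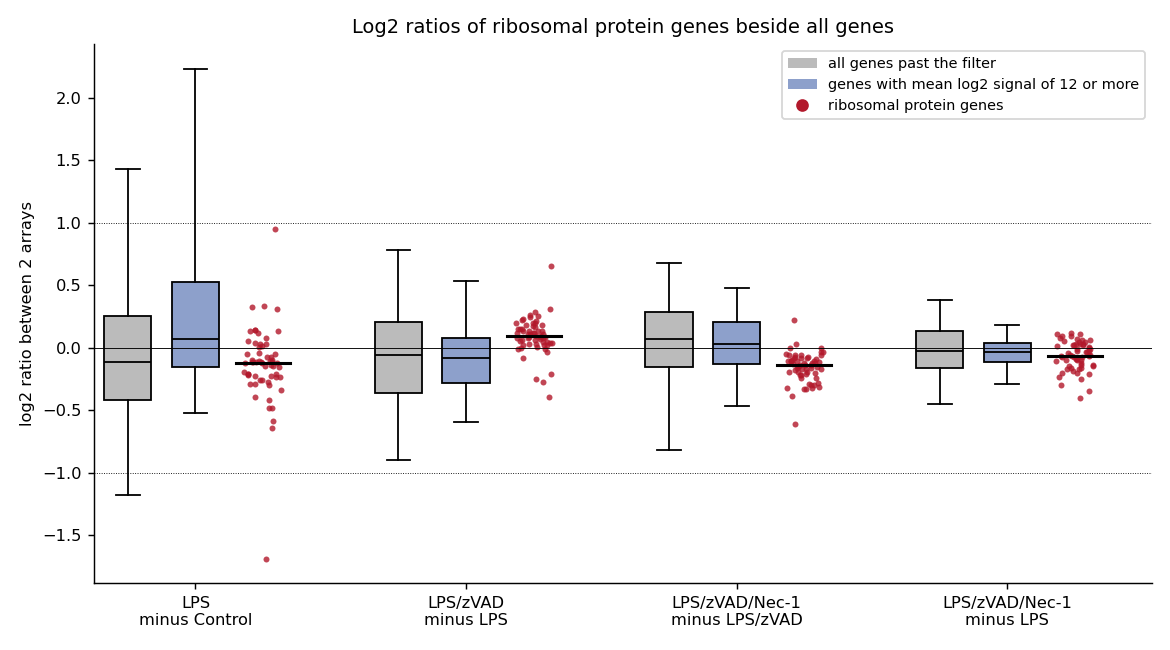
Log2 ratios between 2 arrays for the 4 comparisons (y axis), with boxes (quartiles, median line, whiskers at the 5th and 95th percentiles) for all 12203 filtered genes in grey and the 592 genes of high signal in blue, and a red point for each of the 60 ribosomal protein genes with a bar at their median. Dotted lines mark 2-fold. In every comparison the quartiles of the red points lie closer together than those of all filtered genes. For LPS/zVAD/Nec-1 against LPS they lie no closer than those of the genes of high signal (0.16 against 0.15 apart). The median of the red points is above 0 for LPS/zVAD against LPS (0.09) and below 0 for LPS/zVAD/Nec-1 against LPS/zVAD (-0.14).

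The array with Nec-1 was then compared with LPS/zVAD, since Nec-1 inhibits RIPK1. Again 0 members were 2-fold higher and 0 lower, against 1.14% and 3.32% of all filtered genes (0.169% and 0.169% of those of high signal). At 1.5-fold, Rpl22 was lower and 0 members were higher (8.19% and 7.31% of all filtered genes, 2.36% and 2.36% of those of high signal). At 1.2-fold 11 were lower and 0 higher, against 18.7% and 27.4% of all filtered genes and 11.7% and 19.8% of those of high signal. Ratios lay below 0 in 57 of 60 members (95.0%), in 40.2% of all filtered genes and in 43.4% of those of high signal. They lay above 0 in 2 members (3.33%), 59.8% and 56.6%. The median was -0.14 over the members, 0.07 over all filtered genes and 0.03 over the genes of high signal. The members' median stayed between -0.17 and -0.12 under the 3 other scalings, with 52 to 59 members below 0. This comparison shares the LPS/zVAD array with the one before it, so a high LPS/zVAD array gives opposite signs in both.

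All 20 small subunit members had ratios below 0 (median -0.19), as had 29 of the 30 of the large subunit (median -0.14) and the 3 stalk genes. Rps7 read 13.14 in control, 13.07 under LPS, 13.10 under LPS/zVAD and 12.77 under LPS/zVAD/Nec-1, so its LPS/zVAD/Nec-1 array stood apart below the others. Rpl32l, Rpl7, Rps13 and Rps3a1 had log2 ratios of -0.39, -0.33, -0.32 and -0.32. The 1 probe that carries Rpl32l with a further symbol gave -0.10. Rps27l (0.22) and Rpl41 (0.03) were the 2 members above 0, and the 2 probes annotated to Rpl41 with further symbols gave a median of -0.09. Over all 4 arrays, the LPS/zVAD/Nec-1 array held the lowest signal in 33 of 60 members and the highest in 0, against 14.1% and 13.0% of all filtered genes.

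The LPS/zVAD/Nec-1 array was also set against LPS alone. With 0.0738% of all filtered genes 2-fold higher and 0.541% lower, 0 members passed in either direction (0.0% of the genes of high signal). At 1.5-fold 0 members passed, where 0.738% of all filtered genes were higher and 2.75% lower (0.676% and 0.338% of those of high signal). At 1.2-fold 3 were lower and 0 higher, against 14.7% and 11.7% of all filtered genes and 7.09% and 2.53% of those of high signal. Ratios lay below 0 in 39 of 60 members (65.0%), in 54.4% of all filtered genes and in 63.2% of those of high signal, and above 0 in 20 (33.3%), 45.6% and 36.8%. The median was -0.06. Under the other scalings it ranged from -0.14 to -0.00, with 54 members below 0 in centred arrays, 33 with quantile normalization and 32 with cyclic loess, and 23 members turned sign under at least 1 of them. Rps9 had the lowest ratio (-0.40), followed by Rpl12 (-0.35), Rps7 (-0.30), Rpl24 (-0.25) and Rpl7 (-0.24). The other Rps9 probe gave -0.21, and the probes that carry Rpl12 with further symbols had a median of -0.02. Rps19 (0.11) and Rps14 (0.09) were highest in the small subunit. The 3 probes that carry Rps19 with a further symbol gave -0.29, -0.15 and -0.15, and the other Rps14 probe gave 0.04. With the chosen probes the 3 stalk genes lay above 0, at 0.08 (Rplp0), 0.06 (Rplp1) and 0.12 (Rplp2). The other probe of a single symbol gave -0.04 for Rplp0 and -0.01 for Rplp1. The 2 probes that carry Rplp0 with further symbols had a median of 0.10. In centred arrays the chosen Rplp1 probe gave -0.01.

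Rpl22 was the one member past 1.5-fold in 3 comparisons. It encodes a large subunit protein that binds RNA and is known for its role in lymphocyte development. Its log2 signals were 8.31 in control, 7.67 under LPS, 8.32 under LPS/zVAD and 7.71 under LPS/zVAD/Nec-1. The control and LPS/zVAD arrays were thus high and alike, and the LPS and LPS/zVAD/Nec-1 arrays low and alike. Against control its LPS array was 1.56-fold lower. It was 1.57-fold higher with LPS/zVAD than with LPS and 1.52-fold lower again once Nec-1 was added, and its LPS/zVAD/Nec-1 and LPS arrays were 0.05 (log2) apart. Under the 3 other scalings these log2 ratios were -0.55 to -0.52, 0.61 to 0.72 and -0.67 to -0.63, so the first was then short of 1.5-fold (log2 0.58). Rpl22 has 1 probe in the table, and no second probe could be set against it. Its relative Rpl22l1 had only probes with several symbols and was not analysed here.

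**Figure D4:**
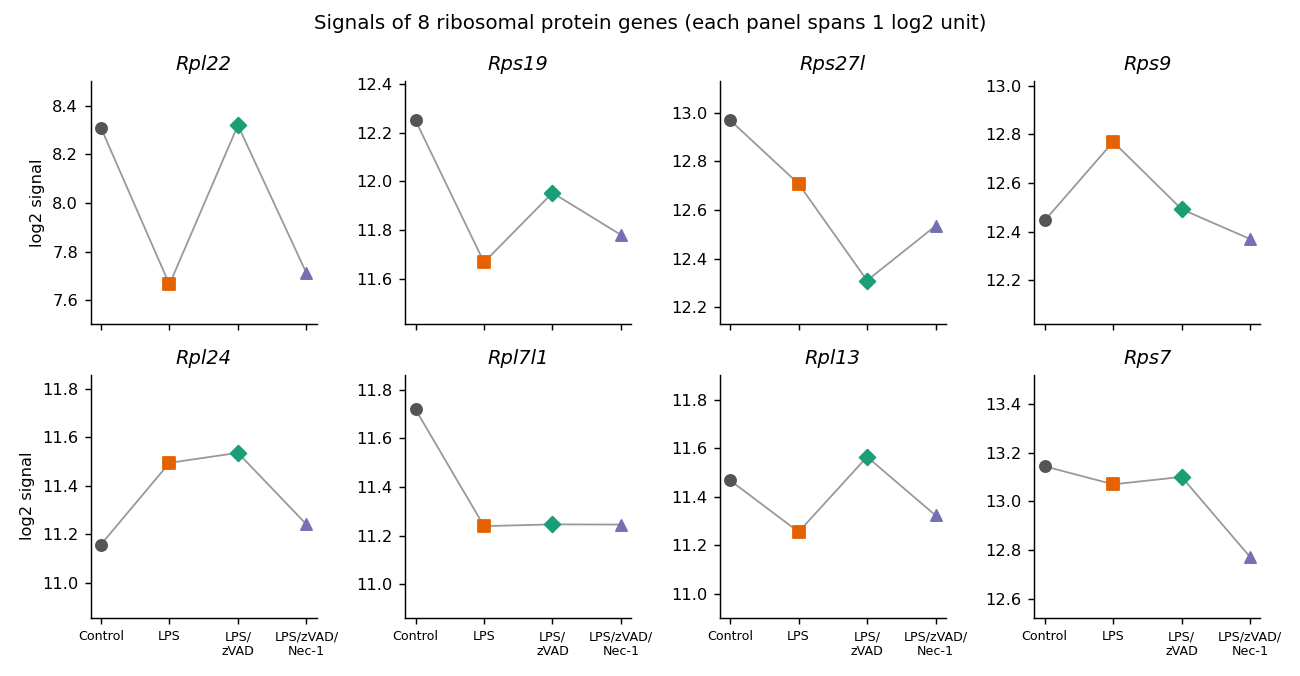
Log2 signals (y axis, each panel 1 log2 unit high) of 8 ribosomal protein genes on the 4 arrays (x axis), with 1 point for each array and no error bars because each condition has 1 array. Rpl22 is high in control and LPS/zVAD and low on the other two arrays, Rps27l is lowest with LPS/zVAD, Rps9 is highest with LPS, and Rpl7l1 is high in control only.

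Members with several probes show how far readings of a gene differ. Of the 60 members, 38 had more than 1 probe of a single symbol, up to 14, and together the members had 212. The median of a member's other probes had the same sign as the chosen probe in 33 of 38 members for LPS against control, 33 for LPS/zVAD against LPS, 38 for Nec-1 added and 29 for LPS/zVAD/Nec-1 against LPS. The median distance between them was 0.05, 0.03, 0.03 and 0.06 (log2), and the largest was 0.47 (Rps21, LPS against control). The mouse genome holds many processed copies of ribosomal protein genes, and near-identical copies can hybridise to the same probe. Of the 212 probes, 19 held values identical to another, so they are not independent readings.

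The 237 probes that carry a ribosomal protein symbol beside other symbols were kept as a group without gene names. Of these, 207 had mean log2 signals of 12 or more. Their ratios were below 0 for 158 probes with LPS (median -0.04), above 0 for 222 with LPS/zVAD against LPS (median 0.06) and below 0 for all 237 with Nec-1 added (median -0.11). For LPS/zVAD/Nec-1 against LPS 191 were below 0 (median -0.05). Of ribosomal genes that the symbol rule leaves out, Rpsa and Fau had probes of their own. Rpsa, a small subunit protein also known as a laminin receptor precursor, read 12.55 in control, 12.07 under LPS, 12.36 under LPS/zVAD and 12.25 under LPS/zVAD/Nec-1, high in control and low with LPS. Fau, made as a fusion with a ubiquitin-like protein, read 13.33, 13.24, 13.24 and 13.21.

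Of 48 measured ribosome biogenesis genes, 20 were 2-fold lower with LPS and 1 higher, with a median log2 ratio of -0.87 (all filtered genes: 7.2% lower and 8.24% higher, median -0.12). Dkc1, the pseudouridine synthase of small nucleolar ribonucleoproteins, read 10.05 in control, 7.47 under LPS, 7.64 under LPS/zVAD and 7.10 under LPS/zVAD/Nec-1. Rrp1b, Gnl3 (nucleostemin) and Tsr1, a factor of small subunit maturation, had LPS ratios of -2.44, -2.37 and -2.06. Sbds, which helps release a factor from the new large subunit, was the one higher (1.38). The list's median was -0.90 to -0.77 under the other scalings, with 18 to 22 genes 2-fold lower.

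With LPS/zVAD against LPS, 4 of the 48 biogenesis genes were 2-fold higher and 1 lower (median 0.15), where 3.25% of all filtered genes were higher and 3.59% lower. Nop58, a core protein of box C/D ribonucleoproteins, read 10.05 in control, 8.25 under LPS, 9.76 under LPS/zVAD and 8.24 under LPS/zVAD/Nec-1, the same high and low arrays as Rpl22. Rrp12, Noc3l and Wdr43 had ratios of 1.24, 1.18 and 1.07, and Ubtf, a transcription factor of RNA polymerase I, had -1.01, which was short of 2-fold after quantile normalization and cyclic loess. With Nec-1 added, 3 were lower (Nop58 at -1.52, Gnl3 at -1.42 and Noc3l at -1.33) and 0 higher (median -0.30), where 3.32% of all filtered genes were lower and 1.14% higher. Under the other scalings 4 or 5 were lower. Against LPS alone, LPS/zVAD/Nec-1 had 0 of the 48 past 2-fold (median -0.04, which turned to 0.02 after quantile normalization). Of all filtered genes 0.541% were lower and 0.0738% higher there.

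Of 18 measured elongation factors and other genes with TOP mRNAs, 0 passed 2-fold in any comparison as deposited. After quantile normalization 1 was lower with LPS. Of all filtered genes, 7.2% were lower and 8.24% higher with LPS, and 3.59% and 3.25% with zVAD added. With Nec-1 added the shares were 3.32% and 1.14%, and between LPS/zVAD/Nec-1 and LPS 0.541% and 0.0738%. At such shares few of 18 genes would pass, so the count of 0 says little. The medians of the 18 were -0.26 with LPS, 0.21 with zVAD added, -0.18 with Nec-1 added and -0.05 between LPS/zVAD/Nec-1 and LPS. Over all filtered genes they were -0.12, -0.05, 0.07 and -0.02. Eef2, the translocation factor of elongation, read 13.42 in control, 13.01 under LPS, 13.29 under LPS/zVAD and 13.12 under LPS/zVAD/Nec-1. Eif4b, a cofactor of the initiation helicase, had the lowest LPS ratio of the list (-0.94). Of 21 translation initiation genes, 1 was 2-fold lower with LPS (Eif4ebp2, a repressor of cap-dependent initiation, -1.41) and 0 passed 2-fold elsewhere. Their medians were -0.19, -0.09, 0.03 and -0.08 in the order of the comparisons, the second turning to 0.03 and the third to -0.01 after cyclic loess.

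**Figure D5:**
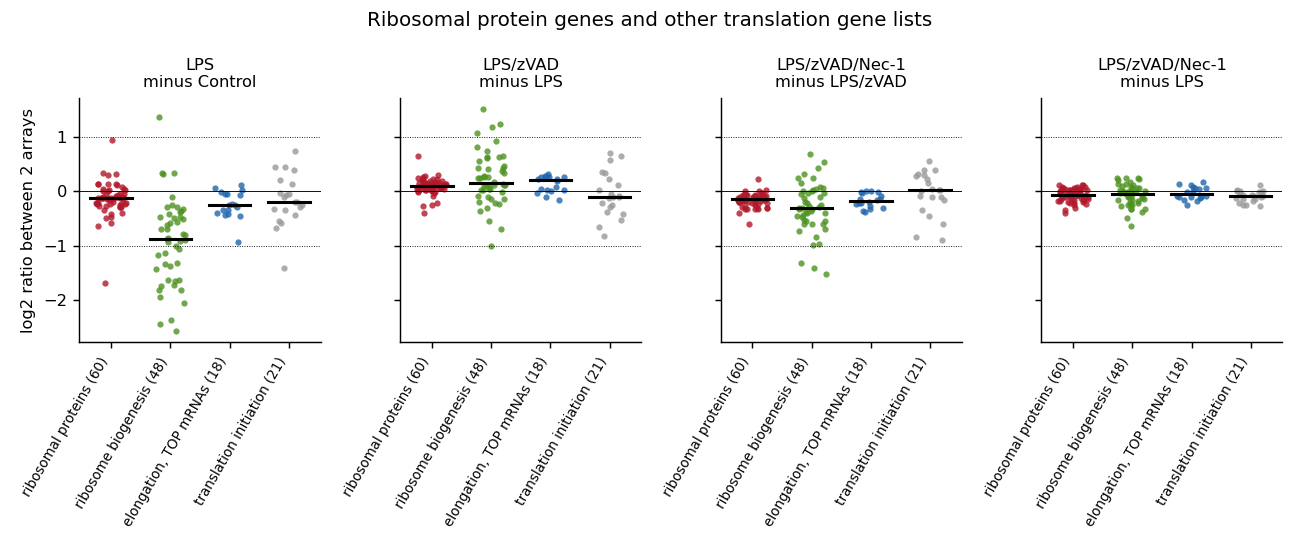
Log2 ratios between 2 arrays (y axis) in the 4 comparisons for the ribosomal protein genes and for 3 lists of translation genes, with 1 point for each gene, a bar at the median and the number of genes in brackets; dotted lines mark 2-fold. Biogenesis genes lie lower with LPS (median -0.87) than the ribosomal protein genes (-0.12), and in the last comparison all 4 medians lie between -0.08 and -0.04.

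Of 22 measured regulators of ribosomal protein expression and translation, 4 were 2-fold higher with LPS and 2 lower, where 8.24% and 7.2% of all filtered genes were. The median was -0.12, or -0.02 in centred arrays and -0.01 with cyclic loess. Myc, a transcription factor that drives ribosome production, read 11.63 in control, 10.20 under LPS, 10.07 under LPS/zVAD and 10.65 under LPS/zVAD/Nec-1. Eif2ak3 (PERK) was the other gene lower (-1.28). Those higher were the interferon-induced kinase Eif2ak2 (PKR, 1.96), the p53 ubiquitin ligase gene Mdm2 (1.60), the MYC partner Max (1.15) and Ddit4, an inhibitor of mTOR (1.02). Larp1, the TOP mRNA binding protein, read 10.53 in control, 11.39 under LPS, 11.20 under LPS/zVAD and 11.36 under LPS/zVAD/Nec-1. Between LPS and LPS/zVAD, 0 of the 22 passed 2-fold (median -0.05), where 3.25% of all filtered genes were higher and 3.59% lower. After cyclic loess 2 of the 22 were higher. With Nec-1 added Mdm2 was lower (-1.12) and Mknk1, a kinase of the cap-binding protein, higher (1.01), the latter short of 2-fold under the 3 other scalings. Of all filtered genes 3.32% were lower and 1.14% higher there. The median of the 22 was 0.05, or -0.02 with cyclic loess. Between LPS and LPS/zVAD/Nec-1, 0 of the 22 passed 2-fold (median -0.02, turning to 0.06 after quantile normalization). The shares of all filtered genes were 0.541% lower and 0.0738% higher.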

How the data were processed

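Total RNA of each state was hybridised to 1 array, per the labels. The deposited values are gene-level signals, and their range shows a log2 scale. The submitters' processing notes name Affymetrix Expression Console. Its version, the background correction and the normalization by the authors are not given in those notes. Symbols came from the platform annotation: 21789 probes had 1 symbol, 1621 several and 12146 none, and probes with several were not named. Ratios are differences of log2 signals between 2 arrays, called at 2-fold, computed with Python 3.11.15 and pandas 2.3.3. Counts over members use all 60, and the background uses 12203 genes whose highest signal reached log2 6.47. Quantile and cyclic loess scalings used limma 3.58.1; the scripts were checked on simulated data. The members and all lists (7 of translation genes, 6 of markers) were chosen with earlier results of these data known. Named were the 6 highest and lowest members per comparison, members past 1.5-fold, relatives of core genes, those highest and lowest in mean signal, members of known role and up to 4 genes of each other list per comparison; Rpl27, Rpl37a, Larp1, Eef2, Sbds, Ubtf, Max and Ddit4 were picked after their values were seen. The several-symbol probes, the high-signal background and the medians without weak members were added after seeing the data.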

Additional observations from a re-analysis of the deposited data

How the results depend on the processing

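Counts of members at 2-fold were small, so the fold rule moved them most. For LPS against control, 0 members higher became 1 at 1.5-fold and 4 at 1.2-fold, and 1 (Rpl10l, under the filter level in both arrays) with centred arrays, quantile normalization and cyclic loess; 1 lower became 2 at 1.5-fold and 12 at 1.2-fold. For LPS/zVAD against LPS, 0 higher became 1 and 4, and 0 lower became 2 at 1.2-fold. With Nec-1 added, 0 lower became 1 and 11, and for LPS/zVAD/Nec-1 against LPS 0 lower became 3 at 1.2-fold. Of the medians, that of LPS against control moved from -0.12 to -0.017 with centred arrays; the others kept their sign and moved by less than 0.1 under every scaling, probe choice and filter tried. Limiting members to those reaching log2 9, or dropping those of mean signal under log2 10, left each median within 0.1 as well. The Rpl12 ratio with LPS was -1.69 with its own probe and -0.12 as the median of its probes with several symbols. With 1 array per condition no array could be left out. No paired analysis was possible because each condition has 1 array.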
